A study of Homo sapiens with 30 samples.

Results

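The RNA of 10 transcription factors of mesenchymal cells was followed through 5 neuroblastoma (NB) lines with and without the CDK9/CDK2 inhibitor CYC065. They were the rows of the expression table with the symbols PRRX1, SNAI1, SNAI2, TWIST1, TWIST2, ZEB1, ZEB2, TCF7L2, ZNF217 and NR3C1, 10 of 26228 genes in the table and 10 of the 11575 genes tested. SH-EP is an NB line of mesenchymal character without MYCN expression. The other 4 lines were made from SH-EP with retroviral MYCN that was WT or carried T58A, S62A or both changes (T58A S62A), at the sites whose phosphorylation sets how stable the MYCN protein is. MYCN in these lines comes from the retroviral transgene, and whether a line is 1 clone or a pool was not stated. All cells grew in DMEM with 10% FBS and had DMSO or 1 μM CYC065 for 6 h. Each of the 10 groups had 3 poly(A) RNA-seq libraries, 30 in all, with ERCC spike-in RNA added by cell number. The sources used here do not say that the 3 libraries came from separate cultures, so the p-values measure the spread between libraries, which may be technical.

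Background on the 10 factors helps to read their levels. Mesenchymal NB cells resemble neural crest or fibroblast-like cells and lack the program of noradrenergic neurons, and networks of transcription factors that sustain each other's genes hold either state. SNAI1 (Snail), SNAI2 (Slug), ZEB1 and ZEB2 are zinc-finger proteins that repress epithelial genes such as CDH1 through E-box sequences, the same event by which epithelial cells turn mesenchymal in the embryo. TWIST1 and TWIST2 are basic helix-loop-helix proteins, which also bind E-boxes, with E-protein partners. PRRX1 is a homeobox protein of embryonic mesenchyme. TCF7L2 carries Wnt signals to DNA together with β-catenin, ZNF217 recruits corepressors that include CtBP and LSD1, and NR3C1 is the glucocorticoid receptor.

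In GRCh37, the build of the authors' alignment, the annotated gene bodies are PRRX1 at chr1:170631869-170708562 on the plus strand, TWIST2 at chr2:239756673-239832230 on the plus strand, ZEB2 at chr2:145121931-145278624 on the minus strand, NR3C1 at chr5:142657496-142815077 on the minus strand and TWIST1 at chr7:19060614-19157259 on the minus strand. ZEB1 lies at chr10:31607424-31818742 on the plus strand, TCF7L2 at chr10:114710006-114927437 on the plus strand, SNAI1 at chr20:48599517-48605423 on the plus strand and ZNF217 at chr20:52183610-52226446 on the minus strand. These 9 genes and SNAI2 are all annotated as protein-coding.

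Promoter sequence was read for the members from RefSeq starts in GRCh38.p14, as the 250 bases before each start. Of the 10 members, 7 matched (PRRX1, TWIST2, ZEB1, ZEB2, TCF7L2, ZNF217 and NR3C1), with 21 start sites. The E-box that MYC proteins favour, CACGTG, was in 0 of these 21 windows, against 6.34% of the 35116 windows of all genes. The E-box of the SNAIL and ZEB proteins, CACCTG or its reverse complement CAGGTG, was in 3 of 21 windows, against 17.5% of all windows, so that both strands were covered. Any CANNTG, which includes these motifs, was in 11 of 21 windows, against 61.8% of all. The matches to the SNAIL and ZEB motif are shown because they lie before starts of NR3C1 and of ZEB1 itself. The motif is in capitals, and each line is 30 bases, 5′ to 3′ on the gene's strand.
NR3C1 at chr5:143435577-143435606, minus strand: ttgtttttctggCACCTGcttgatgacaca
ZEB1 at chr10:31318348-31318377, plus strand: ccgaggtgacagCAGGTGagggccgggtgc
ZEB1 at chr10:31318966-31318995, plus strand: ccccaccaCACCTGaggaaaacttttccct
ZEB1 at chr10:31319119-31319148, plus strand: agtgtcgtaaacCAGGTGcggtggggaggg
The motifs begin 82 bases before a NR3C1 start and 57, 242 and 85 bases before ZEB1 starts, in that order. The window before the ZNF217 start, chr20:53593840-53594089 on the minus strand, is shown because the results on CYC065 turn on ZNF217. It holds no CANNTG and so has no capitals.
ZNF217 window: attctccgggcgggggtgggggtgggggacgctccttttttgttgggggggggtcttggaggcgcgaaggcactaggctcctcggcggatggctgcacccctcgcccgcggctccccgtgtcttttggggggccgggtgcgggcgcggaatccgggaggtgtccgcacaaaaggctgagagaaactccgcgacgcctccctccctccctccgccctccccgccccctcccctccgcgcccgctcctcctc
These matches describe the letters of the windows and are not binding sites.

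Levels are FPKM, that is fragment counts divided by gene length and by the library total. FPKM as deposited says what share of the RNA a gene holds. FPKM scaled so that the spike-ins are equal in all libraries (called spike-in scaled) also follows the amount of RNA against the spike-ins, and fewer cells and less RNA per cell cannot be told apart on it. The deposited values served for comparing lines, and the spike-in scale for CYC065 against DMSO. Tests were limma fits on log2(FPKM + 0.1) over genes averaging 1 FPKM or more, with Benjamini-Hochberg adjustment over all 11575 genes and a threshold of 0.05, and all 10 members passed that filter. The pseudocount makes the changes of low genes look smaller than they are. MYCN was listed at 0 FPKM in all 6 SH-EP libraries. In DMSO it was at 13.3, 13.7 and 11.7 FPKM in the WT line and 15.7, 9.06 and 15.7 in the T58A S62A line, 7.27, 9.84 and 8.44 in the T58A line and 5.08, 6.59 and 5.51 in the S62A line. MYCN was therefore lower in the S62A line than in each of the others (adjusted p = 1.46e-05, 0.0116 and 6.29e-06 against WT, T58A and T58A S62A in the limma fit). Genes at 0 FPKM made up 40.6 to 45.8% of the table in each library. Relative depth, read from the steps of the lowest values, was 0.467 to 1 in DMSO and 0.291 to 0.551 with CYC065. The CYC065 libraries therefore tended to be shallower, with ranges that overlap.

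In SH-EP with DMSO, the RNA of the 10 factors was dominated by PRRX1. Its FPKM made up 51.9% ± 0.99 (SD, n = 3) of the summed FPKM of the 10, followed by TWIST1 with 10.5% ± 0.59, SNAI2 with 9.95% ± 0.38, SNAI1 with 7.12% ± 0.060 and NR3C1 with 5.85% ± 0.26. The lowest was ZEB2 with 1.57% ± 0.16. The sum as deposited fell from 214.5 FPKM ± 8.46 (SD, n = 3) in SH-EP to 183.8 ± 8.18 in T58A, 152.7 ± 6.65 in WT, 143.9 ± 3.22 in S62A and 135.6 ± 3.44 in T58A S62A. PRRX1 held 48.3% of it in T58A and 27.8% in T58A S62A, where TWIST1 held 27.0%, with 39.1% in S62A and 33.2% in WT between them. These shares are ratios within a library and do not depend on the scaling between libraries. The sums do depend on it. Spike-in scaled PRRX1, the largest part, was at a mean of 46.6 in S62A, 67.7 in WT and 68.1 in T58A S62A.

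**Figure D1:**
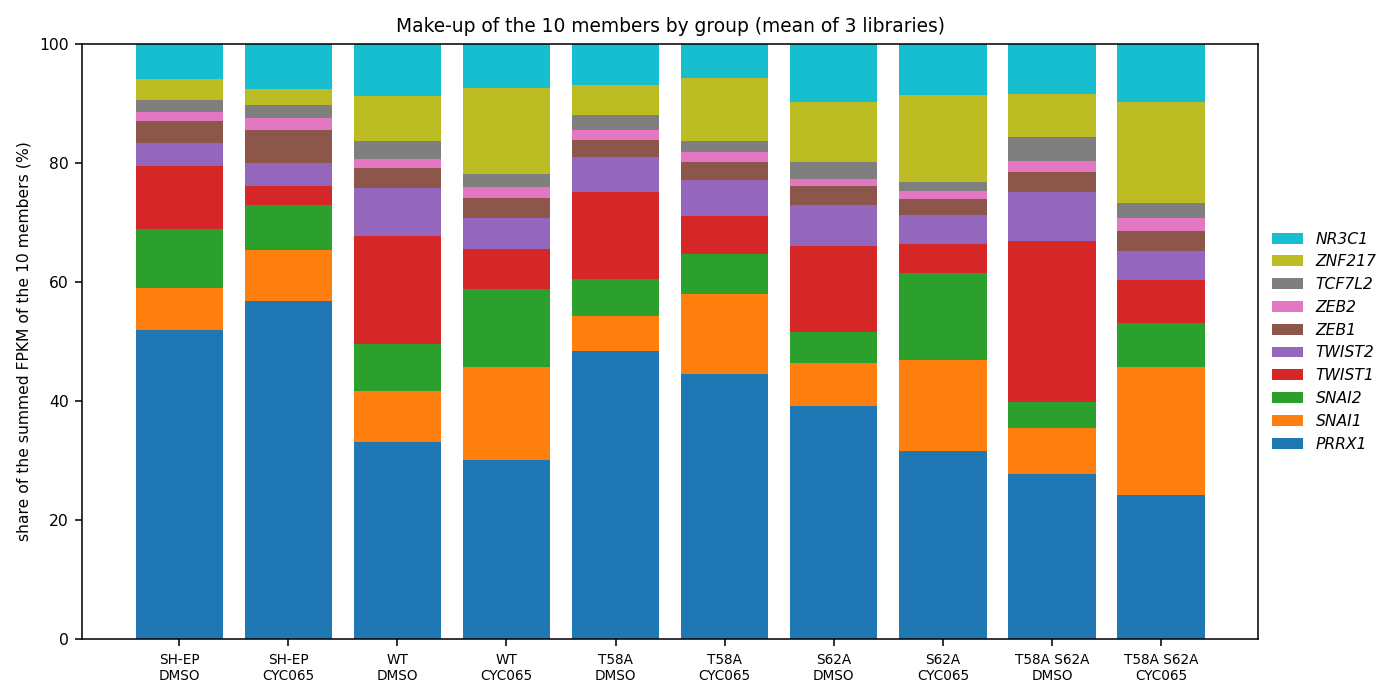
Share of the summed FPKM of the 10 factors (%, mean of 3 libraries) held by each factor in each line with DMSO or CYC065. PRRX1 is the largest part everywhere, from 24.3% in T58A S62A with CYC065 to 56.8% in SH-EP with CYC065, and ZNF217 grows from 7.24% to 16.9% with CYC065 in T58A S62A while it goes from 3.63% to 2.69% in SH-EP.

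The first comparison asked what exogenous MYCN goes with in cells of mesenchymal identity. Of the 10 factors 3, PRRX1, SNAI2 and ZEB1, were lower than in SH-EP in all 4 MYCN lines with DMSO, where 13.4% of all genes tested were lower in all 4. ZNF217, 1 of 10, was higher in all 4, where 19.2% of all genes were. On the spike-in scale ZNF217 was lower instead and 7 of 10 factors were lower in all 4 lines, but there the median of all genes itself moved to -1.17 on the log2 scale (0.06 as deposited) and 67.2% of genes were lower in all 4. By their mean change over the 4 lines, SNAI2, PRRX1 and ZEB1 ranked low among the genes tested on either scale: 4.72%, 6.69% and 11.99% of genes had a lower change as deposited, and 4.58%, 6.52% and 11.8% on the spike-in scale. ZNF217 ranked high on both, with 83.5% and 82.7% of genes below it. Line by line, WT had 4 factors lower (22.6% of all genes) and 2 higher (31.6%), T58A 4 lower (23.3%) and 1 higher (30.9%), S62A 5 lower (23.4%) and 1 higher (31%), and T58A S62A 5 lower (24.1%) and 3 higher (31.2%). The 4 comparisons share the SH-EP libraries. All 6 SH-EP libraries carry an index that a MYCN-line library also carries. Which libraries shared a sequencing pool was not stated in the sources used here. An effect of pool on SH-EP against the MYCN lines therefore cannot be told apart.

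PRRX1 had the most RNA of the 10. Its 3 DMSO libraries were at 109, 107 and 117 FPKM in SH-EP, 95.3, 83.9 and 87.5 in T58A, 56.2, 57.1 and 55.5 in S62A, 45.5, 52.1 and 54.6 in WT and 39.5, 39.6 and 34.0 in T58A S62A. No library of a MYCN line reached the lowest of SH-EP, and no 2 lines next to each other in this order overlapped. Against SH-EP the log2 change was -1.56 ± 0.07 (SE) in T58A S62A, -1.14 ± 0.07 in WT, -0.98 ± 0.07 in S62A and -0.33 ± 0.07 in T58A, with limma adjusted p from 0.000431 in T58A to 5.05e-15 in T58A S62A. Neighbours in the order differed beyond their spread except S62A and WT (adjusted p = 0.124 in the limma fit). On the spike-in scale the order changed, with S62A lowest at -2.93, T58A S62A at -2.40, WT at -2.39 and T58A at -1.28. As deposited, T58A had 1.75 times the PRRX1 of WT, and T58A S62A had 0.424 times that of T58A.

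SNAI1 and SNAI2 were both lower with MYCN, SNAI2 by more. SNAI2 was at 20.5, 21.9 and 21.6 FPKM in SH-EP. The WT libraries had 11.9, 11.6 and 12.7 FPKM of SNAI2, the T58A libraries 11.7, 11.8 and 10.7, the S62A libraries 7.11, 8.23 and 6.97 and the T58A S62A libraries 6.85, 4.64 and 6.84. The lines fell into an upper pair, WT and T58A, which overlapped each other, and a lower pair, S62A and T58A S62A, which did not overlap but missed the threshold (adjusted p = 0.0668). Log2 changes against SH-EP ran from -0.82 ± 0.12 (SE) in WT to -1.81 ± 0.12 in T58A S62A, all past the threshold, with a mean over the 4 lines of -1.26 (limma adjusted p = 4.91e-11). SNAI1 was at 14.9, 15.1 and 15.8 FPKM in SH-EP and at means of 10.4 in T58A S62A, 10.6 in S62A, 11.1 in T58A and 13.1 in WT. It was lower in 3 lines, by -0.47 to -0.56 on the log2 scale, and in WT the change of -0.23 missed the threshold (adjusted p = 0.104). The ratio of SNAI1 to SNAI2, which no scaling touches, was 0.716 ± 0.023 (SD, n = 3) in SH-EP and 1.74 ± 0.32 in T58A S62A.

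ZEB1 was lower in all 4 lines and ZEB2 in 3. ZEB1 libraries lay at 7.57, 7.52 and 7.75 FPKM in SH-EP, at 4.99, 4.98 and 3.86 in T58A S62A, 4.26, 4.78 and 4.88 in S62A, 4.79, 5.35 and 5.18 in T58A and 4.10, 5.31 and 5.90 in WT. The 4 MYCN lines overlapped each other and none overlapped SH-EP, and none of the 6 line pairs passed the threshold for ZEB1. Its mean change was -0.64 ± 0.09 (SE, adjusted p = 2.16e-06). ZEB2 was the scarcest factor, with 3.59, 3.34 and 3.13 FPKM in SH-EP, and its lowest line was S62A with 1.82, 1.72 and 1.78. ZEB2 changed by -0.88 in S62A, -0.61 in WT and -0.42 in T58A S62A, and in T58A the value of -0.18 missed the threshold (limma adjusted p = 0.282).

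TWIST1 and TWIST2 each passed the threshold in 1 line as deposited, above SH-EP, where their mean changes on the spike-in scale were below it (-0.97 and -0.87). TWIST1 was at 20.5, 23.3 and 23.9 FPKM in SH-EP, 37.9, 35.4 and 36.6 in T58A S62A, 28.4, 28.4 and 26.0 in WT, 24.3, 26.0 and 29.4 in T58A and 21.2, 19.8 and 21.7 in S62A. T58A S62A stood above all other libraries, and S62A overlapped SH-EP. The change against SH-EP passed the threshold in T58A S62A (0.70 ± 0.13 SE, limma adjusted p = 5.36e-05, and -0.13 with 0.621 on the spike-in scale), and not in WT (0.29, 0.0582), T58A (0.23, 0.127) or S62A (-0.11, 0.502). The mean over the 4 lines, 0.28 (adjusted p = 0.0197), was lost without SH-EP library 1 (0.21, adjusted p = 0.14). The ratio of TWIST1 to PRRX1 within a library was 0.203 ± 0.015 (SD, n = 3) in SH-EP and 0.977 ± 0.093 in T58A S62A. TWIST2 spread more between libraries, from 7.93 to 9.24 FPKM in SH-EP and from 6.01 to 12.3 in S62A. Its change passed the threshold in WT alone (0.55 ± 0.23, adjusted p = 0.0494), and the mean of 0.37 did not (adjusted p = 0.0893, with an interval of -0.01 to 0.75). How the authors' counting treated fragments that TWIST1 and TWIST2, which are similar paralogs, could share was not stated.

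ZNF217 was higher in every MYCN line as deposited, and lower on the spike-in scale with a mean of -0.73. It was at 6.91, 7.94 and 8.53 FPKM in SH-EP, 8.72 to 10.0 in T58A, 8.78 to 10.8 in T58A S62A, 9.72, 13.0 and 11.9 in WT and 13.9, 15.0 and 14.6 in S62A. S62A stood above all other lines, and no MYCN-line library reached down into SH-EP. The log2 change as deposited was 0.89 ± 0.11 (SE) in S62A, 0.56 in WT, 0.33 in T58A S62A and 0.26 in T58A. The T58A value lay at the threshold (limma adjusted p = 0.0459). In 17 of the 30 fits that leave out 1 library ZNF217 was no longer called in all 4 lines, and its mean of 0.51 (adjusted p = 1.84e-05) stayed past the threshold in all 30.

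TCF7L2 and NR3C1 were close to their SH-EP levels as deposited. TCF7L2 ranged from 4.14 to 4.35 FPKM in SH-EP and from 4.81 to 6.40 in T58A S62A, the only line where it passed the threshold (0.36 ± 0.12, limma adjusted p = 0.0182), and the mean of 0.15 had an interval of -0.05 to 0.35. NR3C1 was at 12.7, 12.5 and 12.5 FPKM in SH-EP and between 11.1 and 14.8 in the 12 DMSO libraries of the MYCN lines. It passed the threshold in none of the 4 lines, and the mean change was 0.03 with an interval of -0.10 to 0.16. On the spike-in scale both were lower, by -1.08 and -1.22, near the median of all genes.

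**Figure D2:**
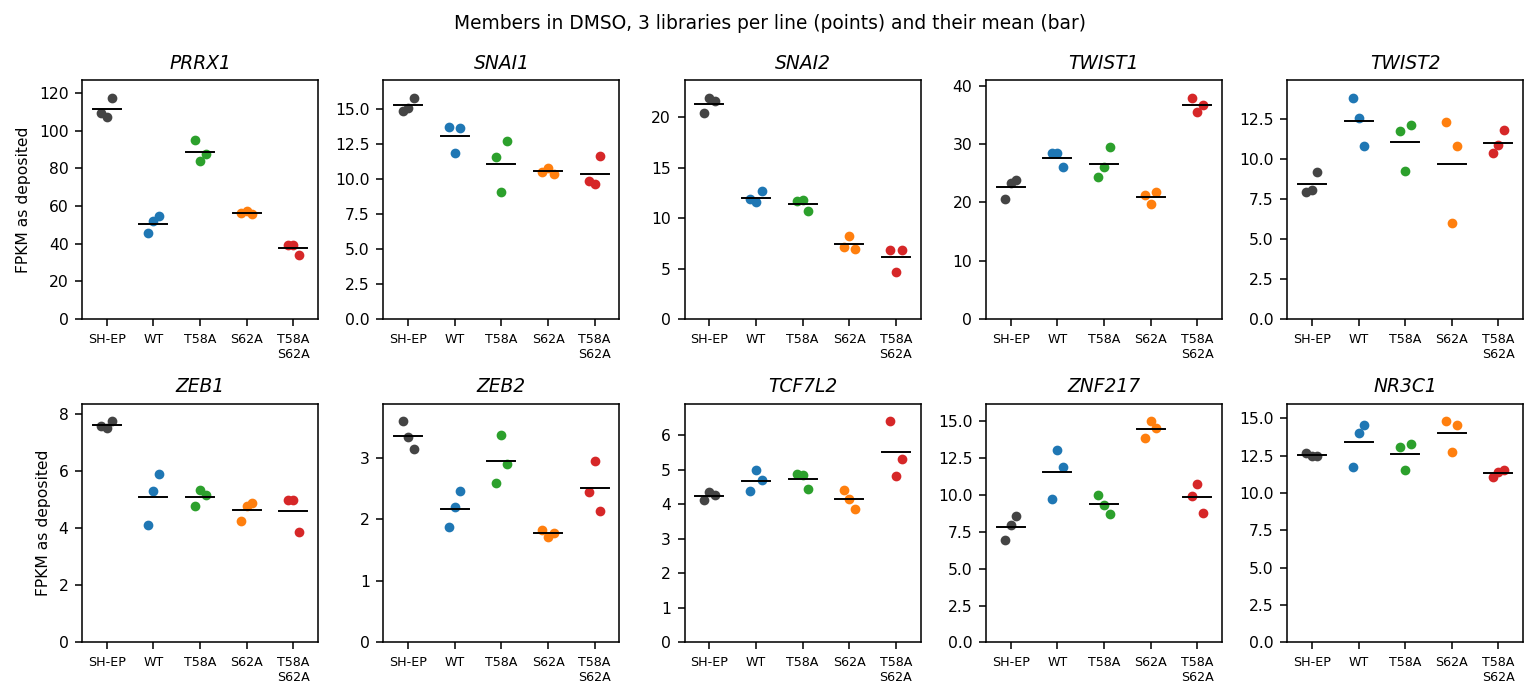
FPKM as deposited of each factor (vertical axis, from 0) in the 3 DMSO libraries of each line (points), with their mean (bar). PRRX1, SNAI2 and ZEB1 have no MYCN-line library at the level of SH-EP, TWIST1 peaks in T58A S62A with 35.4 to 37.9, and ZNF217 peaks in S62A with 13.9 to 15.0.

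The second comparison set the 4 MYCN lines against each other in DMSO, to see what the MYCN changes go with. T58A against WT gave 0 of 10 factors lower (13% of all genes) and 2 higher (10.7%), PRRX1 and ZEB2. S62A against WT gave 2 lower (14%), SNAI2 and TWIST1, and 1 higher (10.1%), ZNF217. T58A S62A against WT gave 4 lower (14.2%), PRRX1, SNAI1, SNAI2 and NR3C1, and 1 higher (9.43%), TWIST1. S62A against T58A gave 4 lower (16.9%), PRRX1, SNAI2, TWIST1 and ZEB2, and 1 higher (16%), ZNF217. T58A S62A against T58A gave 2 lower (9.31%), PRRX1 and SNAI2, and 1 higher (7.42%), TWIST1. T58A S62A against S62A gave 3 lower (15.3%), PRRX1, ZNF217 and NR3C1, and 3 higher (15.4%), TWIST1, ZEB2 and TCF7L2. These splits changed on the spike-in scale, where S62A had 9 of 10 factors lower than WT and all 10 lower than T58A S62A, as did 74.8% and 90.3% of all genes.

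Most of the lowest adjusted p-values as deposited were those of PRRX1 and SNAI2. SNAI2 was lower in T58A S62A than in WT by -0.99 ± 0.12 (SE, limma adjusted p = 1.61e-06) and than in T58A by -0.91 (6.69e-06), and lower in S62A than in WT by -0.69 (0.000165). PRRX1 was higher in T58A than in WT by 0.81 ± 0.07 (1.55e-08). PRRX1 was lower in T58A S62A than in S62A by -0.58 as deposited (8.91e-07) but 0.54 higher on the spike-in scale, and against WT it went from -0.43 to -0.0046. TWIST1 was higher in T58A S62A than in S62A by 0.81 ± 0.13 (2.91e-05), and ZNF217 was higher in S62A than in T58A by 0.63 ± 0.11 as deposited (9.22e-05) but -0.37 on the spike-in scale. Some smaller differences rested on single libraries. TWIST1 in S62A against WT (-0.40) lost its call without WT library 1 or 2 or S62A library 1 or 2, and ZEB2 in T58A against WT (0.43) without WT library 1 or 2 or T58A library 2 or 3. The order of the lines differed between factors. By means as deposited, T58A was nearest to SH-EP for PRRX1 and ZEB2, while WT was for SNAI1 and SNAI2. For ZEB2, T58A overlapped T58A S62A (limma adjusted p = 0.309). WT overlapped T58A for SNAI1 (0.136) and SNAI2 (0.714). On the spike-in scale WT was not nearest for SNAI1 (-1.48, T58A -1.42) or SNAI2 (-2.08, T58A -1.85).

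The state that these factors are known for was checked with lists of marker genes in DMSO. Of 30 mesenchymal marker genes, 29 were tested and all 29 were lower in the mean of the 4 MYCN lines, with a median log2 change of -1.32 against 0.06 for all genes. In that mean 26.3% of all genes were lower and 34.6% higher. Decorin (DCN) and fibronectin (FN1) changed most: DCN was at a mean of 28.2 FPKM in SH-EP and 1.503 in T58A S62A, and FN1 at 303 and 28.3. T58A S62A was the line with the lowest median for the list, -1.65, against -1.26 in WT, -1.38 in T58A and -1.39 in S62A. DCN also differed past the threshold between T58A S62A and WT. VIM (vimentin) was at a mean of 1335 FPKM in T58A S62A against 2496 in SH-EP, and the summed list was at 8889 to 9072 FPKM in the SH-EP libraries and 3222 to 4544 in the MYCN lines. CDH1 (E-cadherin), the epithelial gene that SNAI and ZEB proteins repress, was listed at 0 in all DMSO libraries of all 5 lines. Of 31 epithelial genes, 8 were tested, 3 lower and 2 higher. The 2 higher were CLDN4 (2.199 ± 0.39 SE) and PKP3 (2.06 ± 0.19), tight-junction and desmosome genes with means of 2.77 and 7.05 FPKM in T58A S62A. Of the 31, 6 averaged 1 FPKM or more in SH-EP and 8 in each MYCN line. The filter averaged over all libraries, so a gene scarce in SH-EP could pass it only by being higher in MYCN lines. Of 22 adrenergic markers, 7 were tested, 5 lower and 2 higher (CHGB at 1.16), with a median of -0.52 against 0.06 for all genes. GATA2, GATA3 and HAND2 were among the 7. Other members of the list, PHOX2A, HAND1, TFAP2B, INSM1, STMN2 and NEFM, were at 0 in the DMSO libraries of every line. The summed level of the 22 was 138 to 143 FPKM in SH-EP and 90.4 to 139 in the MYCN lines. Of 12 Schwann cell and melanocyte markers, 3 were tested, 1 lower (S100B at -3.02) and 2 higher (CDH19 at 2.16), with SOX10, FOXD3 and MLANA at 0 in DMSO in every line. By line, CDH19 passed the threshold in WT, T58A and T58A S62A and not in S62A.

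Other genes of these pathways did not move as 1 block. Of 36 other transcription factors of mesenchymal cells, 27 were tested, 10 lower and 9 higher in the mean of the MYCN lines, with a median of 0.05. Of all genes tested, 26.3% were lower and 34.6% higher in that mean, with a median of 0.06. These shares also apply to the counts that follow. The largest changes were IRF1, an interferon-response factor (-1.11 ± 0.13 SE), and TCF3, an E protein that pairs with TWIST proteins (0.60 ± 0.07). Of 28 partners and corepressors, 25 were tested, 5 lower and 14 higher, where 34.6% of all genes were higher. CTNNBIP1, which blocks β-catenin from binding TCF factors, changed by -0.84 ± 0.12, and ID2, which keeps E proteins off DNA, by 0.64 ± 0.06. Of 19 ubiquitin ligases and kinases that act on SNAIL, TWIST and ZEB proteins, 16 were tested, 1 lower and 7 higher, led by SIAH2 (0.57) and CSNK1E (0.57). For TCF7L2, 9 of 16 Wnt target genes were tested, 4 lower and 3 higher, with LGR5, the R-spondin receptor, at 2.09 ± 0.14 and TNFRSF19 at -1.57 ± 0.08. LGR5 differed past the threshold between S62A and each other MYCN line, so its mean does not describe each line. For NR3C1, 13 of 15 glucocorticoid receptor targets were tested, 1 lower and 8 higher with a median of 0.61. Among these targets CRISPLD2 was lower (-3.45 ± 0.21) and DUSP1, a phosphatase of MAP kinases, higher (1.13 ± 0.07). Of the 13 chaperones and hormone enzymes of the receptor, 11 were tested, 3 lower and 6 higher, with HSD11B1, which makes active cortisol, at -3.05 ± 0.26 and the co-chaperone FKBP4 at 1.18 ± 0.04. These are changes as deposited.

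The third comparison asked how 6 h of CYC065 changed the factors. On the spike-in scale 8 of the 10 were lower in all 5 lines, where 69.4% of all genes were lower in all 5. The exceptions were SNAI1 (-0.14, adjusted p = 0.594) and ZNF217 (-0.39, adjusted p = 0.0643) in T58A S62A, in the limma fit. In SH-EP 10 of 10 were lower, with 75.7% of all genes, and in WT, T58A and S62A 10 of 10 were too, with 93.7%, 84.2% and 90.2%. In T58A S62A 8 of 10 were lower, with 76.3%. The median change of the 10 was -1.91 in SH-EP, where that of all genes was -1.06, and -1.91 in the mean of the 4 MYCN lines, where that of all genes was -1.23.

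TWIST1 had the largest fold loss of the 10. In SH-EP it went from 66.1, 71.0 and 78.4 spike-in scaled FPKM to 5.403, 6.09 and 4.90, and in T58A S62A from 76.1, 63.8 and 57.7 to 5.56, 4.39 and 7.42. DMSO and CYC065 libraries did not overlap in either line. Its log2 change was -3.69 ± 0.23 (SE) in SH-EP and -3.36 ± 0.12 in the mean of the MYCN lines (limma adjusted p = 5.53e-20), where 2.89% of all genes tested had a lower value. As deposited, without the spike-ins, TWIST1 still fell by -2.44 and -2.03. TWIST2 fell less, by -2.07 in SH-EP and -2.31 in the MYCN lines, and the ratio of TWIST1 to TWIST2 within a library went from 2.68 ± 0.16 (SD, n = 3) to 0.871 ± 0.13 in SH-EP and from 3.32 ± 0.29 to 1.58 ± 0.40 in T58A S62A.

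PRRX1, TCF7L2, NR3C1 and the ZEB genes followed. In the mean of the MYCN lines TCF7L2 changed by -2.42 ± 0.11 (SE), PRRX1 by -2.06 ± 0.10, NR3C1 by -1.97 ± 0.10, ZEB1 by -1.85 ± 0.10 and ZEB2 by -1.54 ± 0.11 on the spike-in scale. In SH-EP the values were -1.91, -1.92, -1.67, -1.42 and -1.61, in the same order. PRRX1 as deposited fell alike in each line, by -0.64 to -0.74 on the log2 scale, for example from 109, 107 and 117 to 68.3, 70.0 and 71.7 FPKM in SH-EP. ZEB1 as deposited did not pass the threshold in SH-EP (-0.18, limma adjusted p = 0.174).

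**Figure D3:**
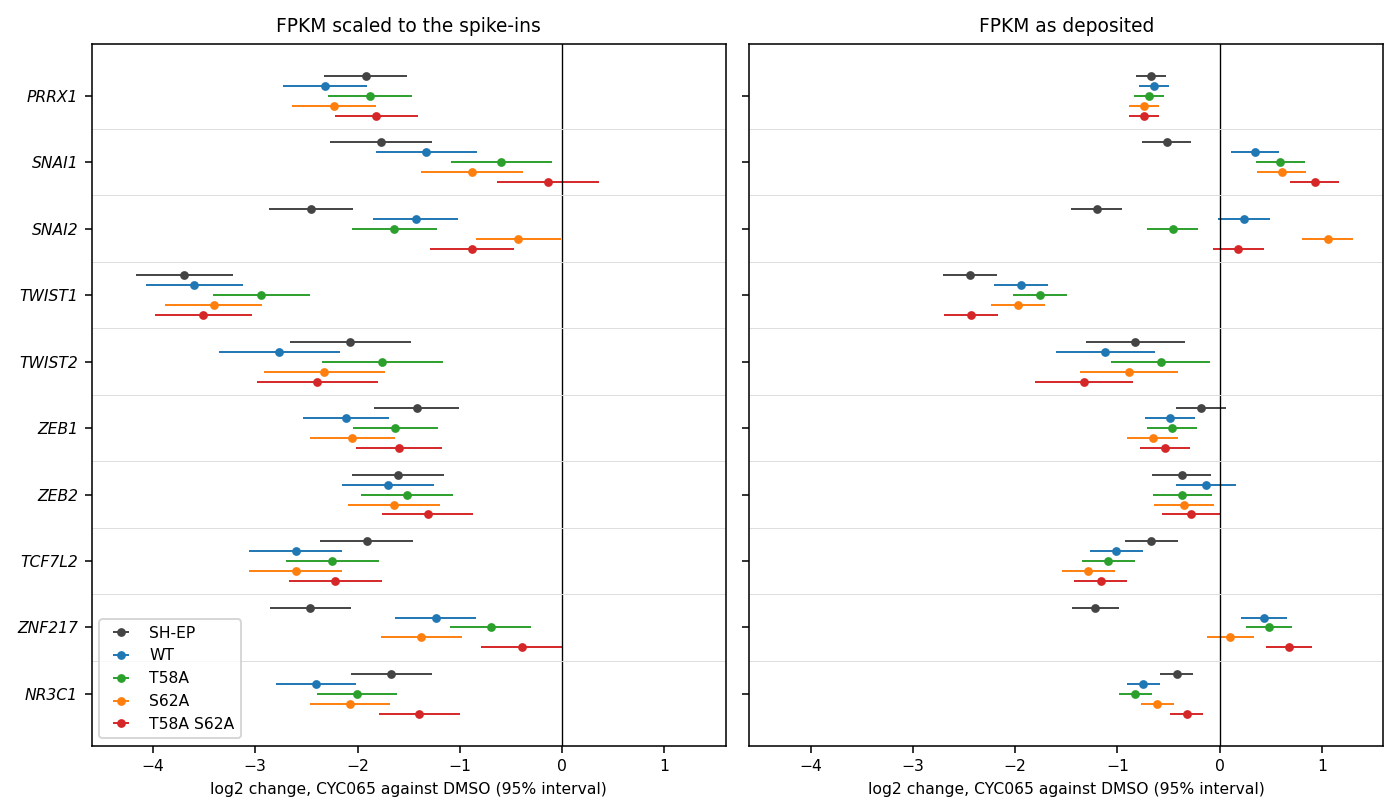
Log2 change of each factor with CYC065 against DMSO in the 5 lines (points, with 95% intervals), on the spike-in scale (left) and as deposited (right). On the left TWIST1 lies lowest, from -2.94 in T58A to -3.69 in SH-EP, and on the right SNAI1, SNAI2 and ZNF217 are below 0 in SH-EP but above 0 in the MYCN lines, except SNAI2 in T58A at -0.46.

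SNAI1, SNAI2 and ZNF217 had the smallest changes of the 10 in the mean of the MYCN lines, while in SH-EP ZNF217 and SNAI2 had the largest after TWIST1. ZNF217 went from 22.2, 24.2 and 28.0 to 4.57, 5.51 and 3.38 spike-in scaled FPKM in SH-EP, a log2 change of -2.46 ± 0.19 (SE). In T58A S62A it went from 20.0, 19.4 and 13.8 to 14.0, 10.8 and 15.6, and the 2 sets overlap. SNAI2 went from 65.8, 66.8 and 71.1 to 13.0, 12.2 and 11.7 in SH-EP (-2.45 ± 0.20), and from 5.83, 7.71 and 5.03 to 4.99, 4.11 and 4.48 in S62A (-0.43 ± 0.20, limma adjusted p = 0.0485). SNAI1 changed by -1.77 ± 0.24 in SH-EP and by -1.33 in WT, -0.88 in S62A, -0.59 in T58A and -0.14 in T58A S62A. As deposited these 3 factors fell in SH-EP and rose in the mean of the MYCN lines, by 0.62 for SNAI1, 0.26 for SNAI2 and 0.43 for ZNF217, while the other 7 fell (39.6% of all genes lower and 45.4% higher as deposited). Of the lines, SNAI2 rose in S62A (1.06), was at 0.24 in WT and 0.18 in T58A S62A, neither past the threshold, and fell in T58A (-0.46). ZNF217 did not pass in S62A (0.11).

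The difference between the responses was tested as an interaction on the spike-in scale. It was positive, that is less loss than in SH-EP, for ZNF217 in all 4 MYCN lines, where 1.37% of all genes were positive in all 4. Its values were 2.07 ± 0.27 (SE) in T58A S62A, 1.77 in T58A, 1.23 in WT and 1.09 in S62A, with limma adjusted p of 1.57e-05, 0.000546, 0.0136 and 0.0176. Of all genes, 5.21%, 2.28%, 1.89% and 3.08% were positive in these lines, and 4.17% in the mean of the 4, where 3 of the 10 factors were. The S62A call was lost without DMSO library 3 or CYC065 library 3 of SH-EP (values between 0.90 and 1.25 over all such fits, highest adjusted p = 0.0615). In a fit of only the groups compared the T58A call was lost at the same value of 1.77 (adjusted p = 0.0509). For SNAI2 the interaction passed in WT (1.02), S62A (2.03) and T58A S62A (1.57) and not in T58A (0.81, adjusted p = 0.154). The WT value rested on single libraries, with 7 of 30 losing the call (all 3 SH-EP DMSO libraries, SH-EP CYC065 libraries 1 and 2 and WT CYC065 libraries 2 and 3, highest adjusted p = 0.0715). For SNAI1 it passed in T58A S62A (1.63, adjusted p = 0.0031), and the mean over the 4 lines (1.03, adjusted p = 0.0191) was lost without SH-EP DMSO library 1 or 3 or CYC065 library 3. As deposited all 3 were positive in all 4 lines, where 5.33% of genes were. The 7 other factors passed in no line on the spike-in scale. As deposited some of them did. TWIST1 was positive and NR3C1 negative in WT and T58A, ZEB1 was negative in S62A, and TCF7L2 was negative in S62A and T58A S62A. Standard errors were larger on the spike-in scale, for PRRX1 in the mean of the lines 0.22 against 0.079 as deposited. The relative depth given above moves with CYC065, and its part in these results was not tested.

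**Figure D4:**
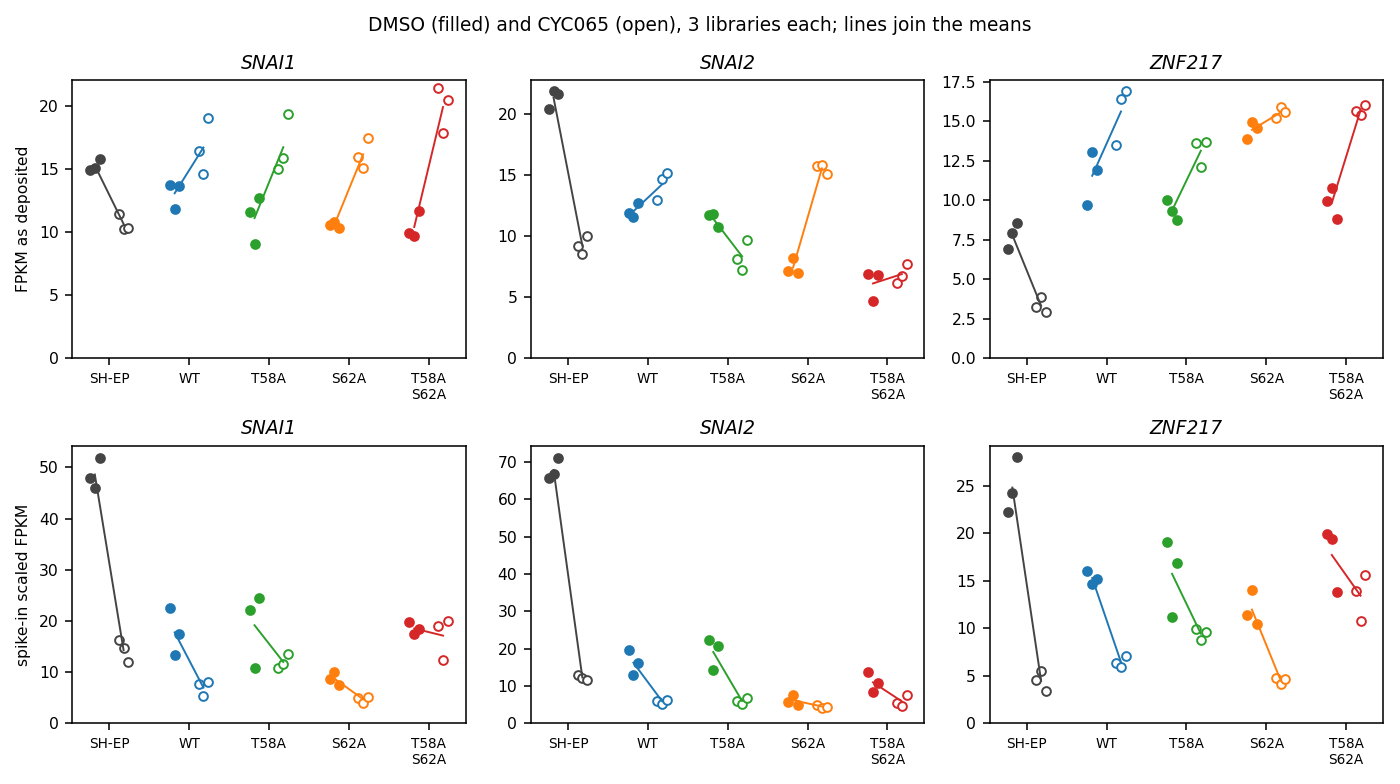
SNAI1, SNAI2 and ZNF217 in the 3 libraries of each line with DMSO (filled) and CYC065 (open), as deposited (top, FPKM) and spike-in scaled (bottom), with lines between the means. ZNF217 falls in SH-EP in both rows, and in the MYCN lines it is higher with CYC065 than with DMSO in the top row (in S62A by 0.11, not past the threshold) and lower in the bottom row.

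Ratios within a library restate part of this split without any scaling, and they also move with the factor divided by. As deposited, NR3C1 itself had a negative interaction past the threshold in WT and T58A. ZNF217 over TWIST1, the factor with the largest loss, rose in SH-EP too, from 0.345 ± 0.011 (SD, n = 3) to 0.814 ± 0.11. SNAI1 over SNAI2 went from 0.716 ± 0.023 to 1.16 ± 0.12 in SH-EP and from 1.43 ± 0.098 to 1.04 ± 0.11 in S62A. ZNF217 over NR3C1 was 0.622 ± 0.070 (SD, n = 3) in SH-EP with DMSO and 0.353 ± 0.038 with CYC065. In the MYCN lines it went from 0.859 ± 0.062 to 1.98 ± 0.31 in WT, from 0.744 ± 0.078 to 1.86 ± 0.17 in T58A, from 1.04 ± 0.12 to 1.70 ± 0.070 in S62A and from 0.868 ± 0.095 to 1.74 ± 0.11 in T58A S62A. SNAI1 over PRRX1 moved from 0.137 ± 0.0032 to 0.152 ± 0.013 in SH-EP and from 0.279 ± 0.055 to 0.885 ± 0.095 in T58A S62A. With CYC065 SNAI1 held 21.4% and ZNF217 16.9% of the summed FPKM of the 10 in T58A S62A, against 8.63% and 2.69% in SH-EP.

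In the presence of CYC065 the lines differed from SH-EP in another pattern than in DMSO. As deposited, 2 of 10 factors, PRRX1 and ZEB1, were lower in all 4 MYCN lines, where 21% of all genes were, and 3, SNAI1, TWIST1 and ZNF217, were higher in all 4, where 22.3% were. On the spike-in scale 6 were lower in all 4, where 53.1% of genes were, and 0 were higher. ZNF217 was at 3.21, 3.84 and 2.89 FPKM in SH-EP with CYC065 and at 12.1 to 16.9 in the 12 libraries of the MYCN lines, with no overlap. Its mean change was 2.15 ± 0.09 (SE), 4.44-fold (limma adjusted p = 1.8e-16), and on the spike-in scale it was the 1 factor of 10 that was higher in the mean of the lines (0.81). SNAI1 was 0.69 higher as deposited and TWIST1 0.69, and -0.66 and -0.64 on the spike-in scale. SNAI2 split the lines as deposited, with 0.62 in WT and 0.75 in S62A above SH-EP, -0.42 in T58A S62A below it and -0.15 in T58A not past the threshold (adjusted p = 0.278 in the limma fit). SNAI2 was below SH-EP in all 4 on the spike-in scale, by -1.04 to -1.43.

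**Figure D5:**
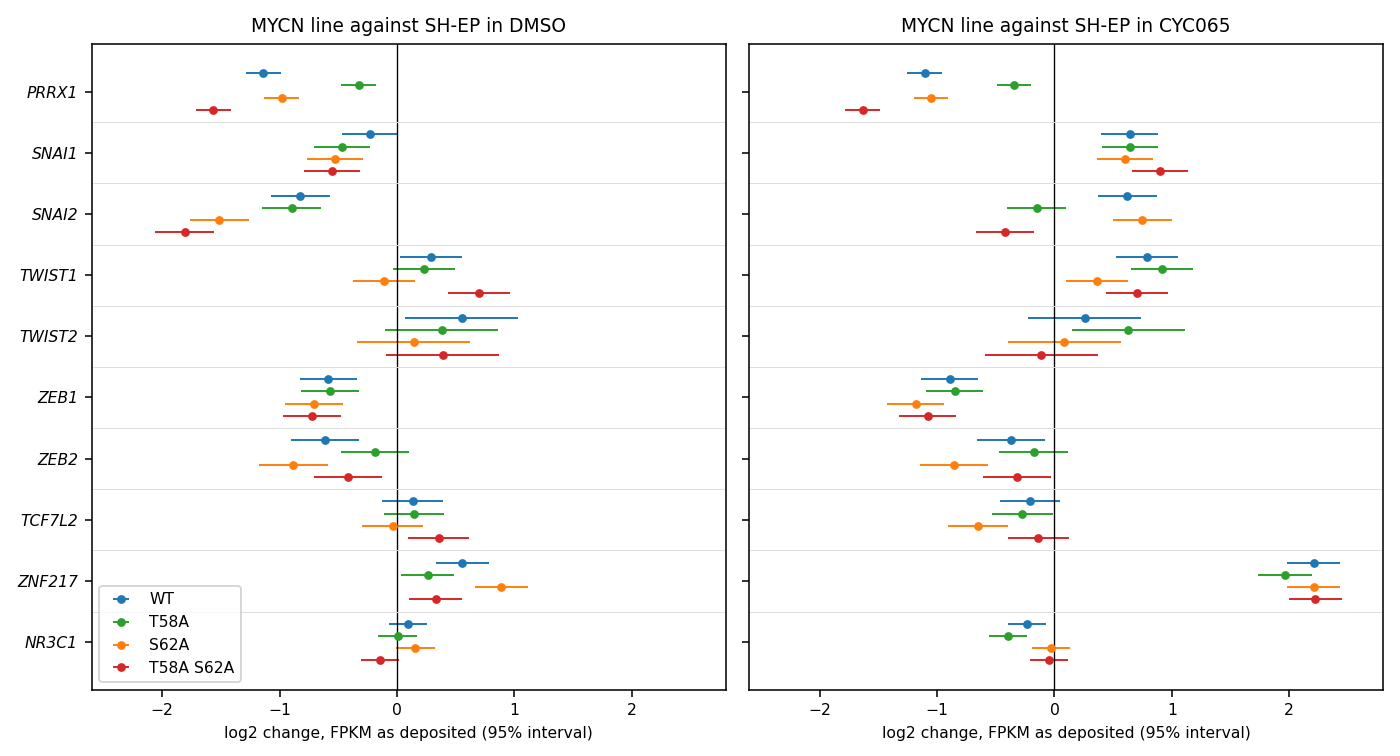
Log2 change of each factor in each MYCN line against SH-EP (points, FPKM as deposited, with 95% intervals), in DMSO (left) and CYC065 (right). ZNF217 lies at 0.26 to 0.89 in DMSO and at 1.96 to 2.22 in CYC065, while PRRX1 keeps its order of lines, from -0.33 to -1.56 and from -0.34 to -1.63. On the spike-in scale the mean over the lines turns from above to below 0 for ZNF217, TWIST1, TWIST2, TCF7L2 and NR3C1 in DMSO and for SNAI1, SNAI2, TWIST1 and TWIST2 in CYC065.

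The lists of related genes fell with CYC065 on the spike-in scale, where 94.1% of all genes were lower in the mean of the MYCN lines. The count was 25 of 27 for the other transcription factors, 25 of 25 for partners and corepressors, 14 of 16 for the ligases and kinases, 9 of 9 for Wnt targets, 10 of 13 for glucocorticoid receptor targets, 10 of 11 for its chaperones and enzymes, 29 of 29 for mesenchymal markers and 7 of 8 for epithelial genes. Adrenergic markers gave 7 of 7 and Schwann cell and melanocyte markers 2 of 3. Medians ran from -1.99 for Wnt targets and -1.67 for the other transcription factors to -0.75 for mesenchymal markers, -0.74 for epithelial genes and -0.58 for Schwann cell and melanocyte markers, with -1.23 for all genes. Among genes that pair with the factors, the corepressor subunits SIN3A and RCOR1 changed by -3.68 and -2.97, and the kinase CSNK1D and the ligase subunit FBXL5 by -3.28 and -3.27. The homeobox factor MSX1 changed by -2.70, and the Wnt genes ZNRF3 and FZD7 by -3.91 and -2.98. For the receptor, SLC19A2, PER1, DNAJB1 and NCOA1 changed by -2.63, -2.37, -2.95 and -2.10. Of the markers, PDGFRA and CDH11 changed by -2.13 and -1.40, CLDN4 and PKP2 by -2.50 and -1.60, HAND2 and GATA2 by -2.65 and -1.93, and MITF and CDH19 by -2.22 and -0.58.

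Genes with a pattern most like each factor were taken by Pearson's r over the 10 group means of log2 FPKM as deposited, as a description. PRRX1 was nearest to ARHGEF40 (r = 0.963), MIA3 and CNIH3, TWIST1 to KCTD1 (0.993), SETDB1 and RNF34, and TWIST2 to AURKB (0.983), C9orf114 and NIF3L1. ZEB1 was nearest to S1PR3 (0.985) and RPS6KC1, and ZEB2 to NLRP1 (0.959), MAML2 and CALHM2. SNAI2 was nearest to NR2F1 (0.906), PDP1 and SERTAD3, and SNAI1 to SNORA44 (0.927), RNF139-AS1 and SNORA1. TCF7L2 was nearest to PAFAH2 (0.987), FAM175B and TSHZ1, NR3C1 to BMPR1A (0.977), C19orf68 and SPICE1, and ZNF217 to SNHG17 (0.970), PPP1R15A and KBTBD8. The 10 points share the treatment, so a gene that fell with CYC065 scores high against any factor that did.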

How the data were processed

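Poly(A) RNA of SH-EP and 4 SH-EP MYCN lines was sequenced in 30 libraries. Reads were aligned by the authors with HISAT2 (genome hg19/GRCh37), and Cufflinks, run as fr-firststrand, gave the deposited FPKM, with ERCC spike-ins in the same table. The annotation was not given in the sources used here. FPKM was taken as deposited or scaled to the median log2 level of 55 of 92 spike-ins (mean of at least 1 FPKM). Of 26228 genes, 11575 averaging 1 FPKM or more were tested on the scale log2(FPKM + 0.1). The test was limma (version 3.58.1, under R 4.3.3), as 1 fit over the 10 groups with a trend in the spread. An exact permutation test of 3 against 3 libraries cannot go below p = 0.1. Counts are not in the file, so depth is known only relative to the deepest library, and 4125 values lie at exactly 0.01. No 2 libraries were identical, and correlations within a group were 0.925 to 0.959. Tested on simulated data for a line against SH-EP in DMSO over 11575 genes, 80 of 100 genes changed by 1 on the log2 scale and 98 of 100 changed by 2 were recovered. In that simulation 8 unchanged genes were called. Its noise was independent between libraries, so it does not cover effects that libraries share.

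The members and the gene lists were chosen with earlier results of these data known. Named genes were all 10 members, MYCN, the 3 genes most like each member and the 2 genes of each list with the largest mean change among those past the threshold. A few genes that this rule names are not reported here. Genes named beyond that rule (CDH1, VIM, GATA3 and markers at 0) were chosen after their values were seen. Alternatives were another scaling, median centring, pseudocounts of 1 and 0.01, no filter or 5 FPKM, a fit of only the groups compared, no trend, leaving out each library and, added after seeing the data, a block on the column number. Libraries are numbered by their order in the table, and 0 columns of other samples were present.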

Additional observations from a re-analysis of the deposited data

Results flagged for a closer look

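The response to CYC065 differed between SH-EP and MYCN lines for 3 of the 10 factors, by the interaction test on the spike-in scale. For ZNF217 the difference in log2 response was 1.23 in WT, 1.77 in T58A, 1.09 in S62A, 2.07 in T58A S62A and 1.54 in the mean of the 4 lines. For SNAI2 it was 1.02 in WT, 2.03 in S62A, 1.57 in T58A S62A and 1.36 in the mean. For SNAI1 it was 1.63 in T58A S62A and 1.03 in the mean. All were positive, meaning less loss than in SH-EP. Limma adjusted p ran from 1.57e-05 for ZNF217 in T58A S62A to 0.0307 for SNAI2 in WT. With 1 library left out in turn, SNAI2 in WT lost its call in 7 of 30 fits, the SNAI1 mean in 3 and ZNF217 in S62A in 2, as given in the report by library.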

How the results depend on the processing

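The columns are numbered from 0 and the labels from 1, so no column was matched to a labelled replicate. A replicate block on the column number, chosen after seeing the data, changed the call of 0 of 80 values and gave 4 factors lower in all MYCN lines in DMSO against 3. The number did not mark pairs: deviations from the group means had a median r of 0.000259 over the 135 same-numbered pairs of libraries (-0.126 to 0.161), and 13 of 30 libraries correlated best with their own number. Scaling decided most changes of direction. Against SH-EP in DMSO on the spike-in scale, TWIST1 was -0.97, TWIST2 -0.87, TCF7L2 -1.08, ZNF217 -0.73 and NR3C1 -1.22. Between lines on that scale, ZNF217 was -0.36 for S62A against WT, -0.37 for S62A against T58A and 0.55 for T58A S62A against S62A, SNAI1 was 0.091 and NR3C1 0.18 for T58A S62A against WT, and PRRX1 was 0.54 and NR3C1 0.81 for T58A S62A against S62A. In CYC065, SNAI1 was -0.66 and TWIST1 -0.64 against SH-EP. The response to CYC065 in the MYCN lines was 0.62 as deposited and 0.79 median centred for SNAI1, 0.26 and 0.43 for SNAI2, and 0.43 and 0.60 for ZNF217. Factors lower in all 4 lines in DMSO numbered 3, and 7 on the spike-in scale. Those higher numbered 1, and 0 on the spike-in scale, with median centring, with no filter or with only the groups compared, and between 0 and 1 with 1 library left out. Factors lower in all 5 lines with CYC065 numbered 8, and 5 as deposited, 3 with median centring and 5 with a filter at 5 FPKM, which leaves fewer genes tested. The interaction was positive in all lines for 1 factor, for 3 as deposited or median centred, for 0 with only the groups compared, and for 0 to 1 with 1 library left out. In CYC065, lower in all lines went from 2 to 6 on the spike-in scale and 1 with a filter at 5 FPKM, and higher from 3 to 0 on the spike-in scale. Tests of line pairs that were higher went from 9 to 15 on the spike-in scale and 5 with only the groups compared. The cause of these shifts was not tested. With 1 library left out, 46 values fell below the threshold, 1 passed it, 0 reversed and 2353 kept both direction and call.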
